A study of Mus musculus with 2 samples.

Results

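The TIM genes *Timd2*, *Timd4*, *Havcr1* and *Havcr2* were examined on 1 array of G9a-KO ESCs and 1 array of WT ESCs. These 4 of the 18194 named genes on the arrays were chosen by their place in 1 gene cluster and by the differences between these arrays, which put *Havcr1* among the highest of the series, so all values of the 4 genes are a description and carry no test. They were read by 6 of the 34958 probe sets (groups of probes that together read 1 transcript) with a single gene symbol. The WT cells were TT2, an ESC line whose F1 embryo came from C57BL/6 and CBA parents. In the G9a-KO cells, made from TT2, Cre had removed exons that encode the catalytic core of the SET domain from a floxed G9a allele, and the other allele was already mutant. Both samples share 1 treatment text, with 800 nM 4-hydroxytamoxifen for 48 h to delete the floxed allele and 48 h without the drug, and whether WT cells received it is not stated. The methods of the study instead call the G9a-KO cells an established null line kept on inactivated embryonic fibroblasts. Neither the Cre nor the number of clones behind the line is named in those sources.

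*Ehmt2*, the gene for G9a, had a level of 0.51 in G9a-KO and 2.05 in WT (2.90-fold lower) by 1 probe set, and -2.07 in G9a-KO and -2.27 in WT by the other. Because the position of these probe sets relative to the removed exons is not known here, they do not check the label. All 12 embryonic stem cell markers examined exceeded the median signal of both arrays, with *Pou5f1* at 4.45 in G9a-KO and 4.91 in WT and *Nanog* at 4.31 in G9a-KO and 4.10 in WT. Of the 12, 1 was over 1.3-fold higher in G9a-KO and 5 were over 1.3-fold lower, with a median difference of -0.29. This is set against 17.4% higher and 17.2% lower over all genes when the probe set with the highest mean stands for each gene. By these probe sets the largest differences on the list were decreases in G9a-KO. They were those of *Lin28a* (0.40 in G9a-KO and 1.69 in WT, a difference of -1.29), *Zfp42* (-0.79) and *Sall4* (-0.62). These and all levels below are log2 values from which the 75th percentile of their array was subtracted, and a difference is G9a-KO minus WT. On this scale, the median of all probe sets was -2.13 on the G9a-KO array and -2.24 on the WT array. Over all single-gene probe sets, 6254 were over 1.3-fold higher in G9a-KO and 5379 over 1.3-fold lower, so that 53.8% of these calls were higher, and with median centring 39.5% were.

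TIM proteins are cell surface glycoproteins with an immunoglobulin-like head on a mucin-like stalk. The head of several of them holds a pocket that binds phosphatidylserine, a lipid which dying cells expose on their surface, so that TIM proteins can tether dying cells and help to engulf them. TIM-1, the product of *Havcr1*, is known from T cells and, under the name kidney injury molecule, from damaged kidney tubules. TIM-2, encoded by *Timd2*, takes up ferritin and is found in mouse and not in human. TIM-4, encoded by *Timd4*, is a phosphatidylserine receptor of macrophages, and TIM-3, encoded by *Havcr2*, is an inhibitory receptor of T cells and myeloid cells. G9a places the H3K9me2 mark, a histone modification linked to gene silencing.

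In the RefSeq gene order of mouse chromosome 11, the cluster ran *Havcr2*, *Timd2*, *Havcr1*, *Timd4*, with other genes between. *Timd2* and *Havcr1* stood on opposite strands with their starts facing each other, and 1 transcribed pseudogene, *Gm12174*, lay between them. For each of these genes, the sequence before 1 of its RefSeq starts, the most upstream in the promoter set used, is shown because both had far higher signal on the G9a-KO array, and that of *Havcr2* is shown because it did not. Each is the 250 bases before the start, 5′ to 3′ on the strand of the gene, from RefSeq, and capitals mark the motif GATAA, recognised by GATA factors, on either strand.

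*Havcr1*, GRCm38.p6 chr11:46739973-46740222, plus strand: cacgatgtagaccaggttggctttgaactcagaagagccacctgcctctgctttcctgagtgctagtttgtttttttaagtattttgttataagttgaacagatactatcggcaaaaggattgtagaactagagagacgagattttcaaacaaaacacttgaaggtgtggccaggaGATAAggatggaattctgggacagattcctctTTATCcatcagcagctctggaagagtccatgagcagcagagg

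*Timd2*, GRCm38.p6 chr11:46707105-46707354, minus strand: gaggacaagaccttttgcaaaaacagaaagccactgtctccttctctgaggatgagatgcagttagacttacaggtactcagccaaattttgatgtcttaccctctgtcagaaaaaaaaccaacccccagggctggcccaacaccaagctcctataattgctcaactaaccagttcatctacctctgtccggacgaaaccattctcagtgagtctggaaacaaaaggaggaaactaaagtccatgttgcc

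*Havcr2*, GRCm38.p6 chr11:46454681-46454930, plus strand: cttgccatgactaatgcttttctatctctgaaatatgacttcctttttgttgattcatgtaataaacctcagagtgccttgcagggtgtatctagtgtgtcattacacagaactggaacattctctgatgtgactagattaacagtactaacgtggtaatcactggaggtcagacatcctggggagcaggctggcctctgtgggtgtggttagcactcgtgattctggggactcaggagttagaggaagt

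GATAA stood in the *Havcr1* stretch 2 times, at -74 and, on the other strand, at -42 relative to this start. At least 1 match stood in 22.6% of 32851 such stretches of all genes, and the share with 2 was not counted. The annotated span of *Havcr1* begins before this stretch, so transcripts with an earlier start are annotated and the stretch lies within the gene. Neither the other 2 *Havcr1* stretches nor those of *Timd2* (2 stretches), *Havcr2* (1) and *Timd4* (1) held the motif. The E-box CACGTG, bound by MAX, stood in 0 of these 7 stretches and in 6.02% of all. The E2F motif TCCCGC stood in 1 of the 7, the second of *Havcr1*, and in 16.9% of all. The motifs were searched on both strands, do not overlap each other in the stretches shown and were chosen after the expression values were known. All 7 stretches were poor in CpG, the dinucleotide at which DNA is methylated, with 2 to 4 CpG each. The median over all stretches was 6, and 44.4% of all stretches held 4 or fewer. A match describes letters, and binding was not measured.

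*Havcr1* had a level of 1.61 in G9a-KO and -3.06 in WT by 1 of its probe sets. This is a difference of 4.68 (25.5-fold higher), the 10th highest of the 34958 single-gene probe sets. By the other, whose name ends in _a_at, *Havcr1* had 0.06 in G9a-KO and -3.62 in WT (12.9-fold higher). Both probe sets thus put *Havcr1* well into the upper part of the G9a-KO array and below the median of the WT array, above 87.4% and 75.5% of all probe sets in G9a-KO and above 35.2% and 23.9% in WT.

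*Timd2*, the gene next to *Havcr1* among those measured, showed the same pattern. The first of its probe sets read 0.96 in G9a-KO and -2.60 in WT, a difference of 3.56 (11.8-fold higher). The other, whose name ends in _s_at, read 0.68 in G9a-KO and -3.75 in WT, a difference of 4.43 (21.6-fold higher), which ranked 18th. The differences given by the probe sets of 1 gene were 0.87 apart for *Timd2* and 0.99 apart for *Havcr1*, which is below the differences themselves. Averaged over its probe sets, *Havcr1* was 18.1-fold and *Timd2* 15.9-fold higher in G9a-KO. *Timd2* and *Havcr1* are related in sequence, and probe sets ending in _s_at can bind more than 1 transcript. Whether part of the *Timd2* signal came from *Havcr1* RNA, or the reverse, was not tested.

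*Timd4* and *Havcr2*, the outer genes of the cluster, stayed low on both arrays. *Timd4* had a level of -2.19 in G9a-KO and -3.20 in WT, a difference of 1.01 (2.02-fold higher). Its G9a-KO level lay just below the median of that array, and the difference fell under 2-fold with the other scalings (0.91 to 0.96). *Havcr2* had a level of -3.29 in G9a-KO and -3.43 in WT, a difference of 0.13 (1.10-fold higher). The RNA signal of this gene was thus low in both cell lines, and the TIM-3 protein was not measured. Single-gene probe sets that lay below the median on both arrays, as those of *Timd4* and *Havcr2* did, had a robust SD of 0.23 between the arrays. Of these 13651, 0.798% were over 2-fold higher in G9a-KO, against 4.16% of all single-gene probe sets. Both the SD and the 0.798% are kept low by the filter, which leaves out any probe set that rose past the G9a-KO median.

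**Figure D1:**
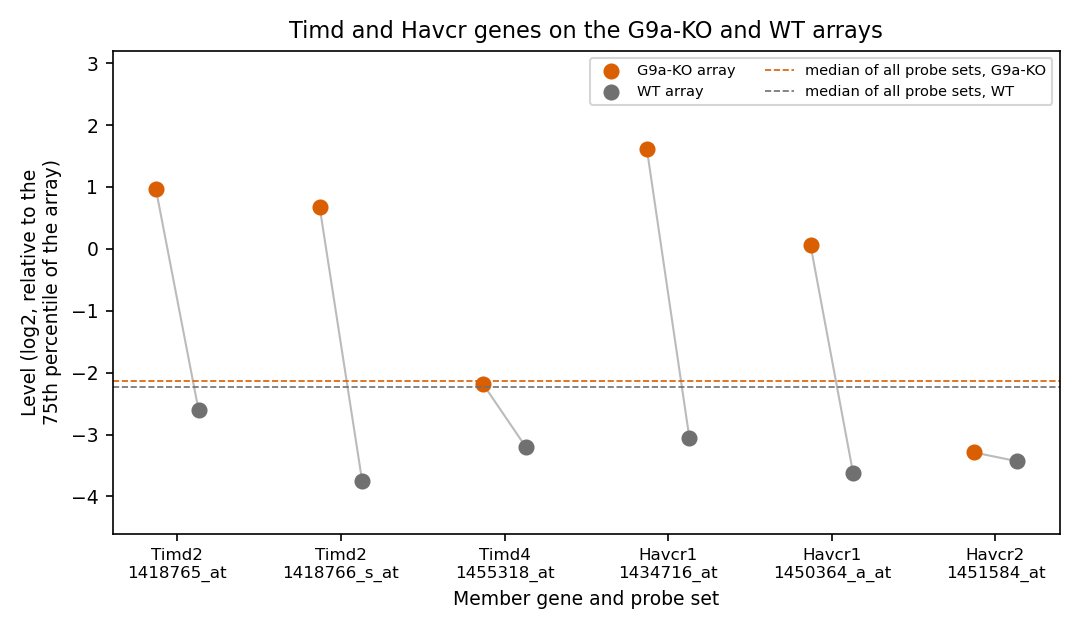
Level of each Timd and Havcr probe set (vertical axis, log2 minus the array's 75th percentile) on the G9a-KO array (orange, left) and the WT array (grey, right), 1 point per array, with dashed lines at the median of all probe sets. The 4 probe sets of *Timd2* and *Havcr1* lie between 0.06 and 1.61 in G9a-KO and between -3.75 and -2.60 in WT, while *Timd4* and *Havcr2* lie below the dashed line of each array.

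Of the 6 probe sets, 5 were over 1.3-fold higher in G9a-KO, the threshold that the study used for this pair of arrays, and the same 5 were over 2-fold higher, while 0 were over 1.3-fold lower. Over all single-gene probe sets these shares were 17.9% for 1.3-fold higher and 4.16% for 2-fold higher. As the members were chosen with these differences known, nothing is read from the count. In WT, 0 of the 6 probe sets lay above the median of the array, and in G9a-KO 4 did. The WT levels of *Havcr1* and *Timd2* therefore depend on the background of the array, and their folds are not exact. With 1 array per group there is no spread between cultures against which to set any difference. Between the arrays, the 18 probe sets for hybridization spike-ins differed by -0.16 to 0.21, and the robust SD over all single-gene probe sets was 0.35.

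**Figure D2:**
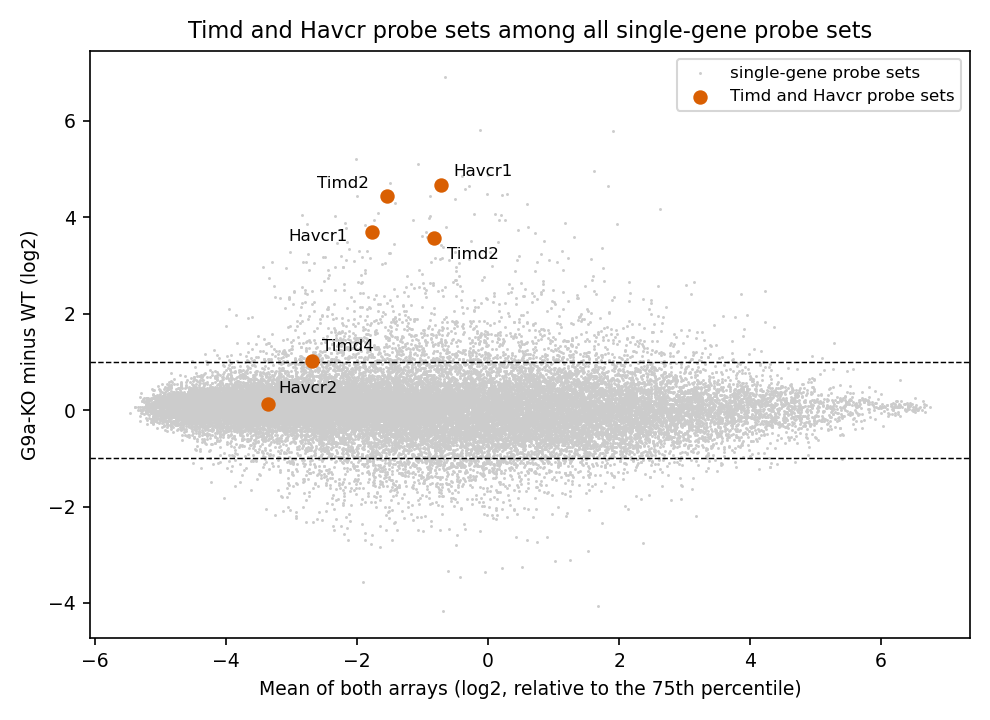
Vertical axis, log2 difference of G9a-KO and WT; horizontal axis, mean of the log2 levels on both arrays relative to their 75th percentiles; each point is 1 of 34958 single-gene probe sets (grey), with the 6 Timd and Havcr probe sets in orange and dashed lines at 2-fold. The probe sets of *Havcr1* and *Timd2* lie between 3.56 and 4.68, *Timd4* lies at 1.01 on the upper dashed line, and *Havcr2* lies at 0.13 within the bulk.

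To see how far along the chromosome the difference reached, the genes around the cluster were examined in RefSeq order, from the 10th gene before *Havcr2* to the 10th after *Timd4*. Of these 32 genes, 12 had a single-gene probe set, the 4 TIM genes and 8 neighbours. Between *Havcr2* and *Timd2* lay *Gm12169*, *BC053393* and *Gm4926*, of which the files and reference give no function. *BC053393* had a level of -2.02 in G9a-KO and -3.14 in WT (2.17-fold higher). *Gm4926*, a transcribed pseudogene, had -3.43 in G9a-KO and -3.87 in WT (1.36-fold higher), and *Gm12169* had -3.16 in G9a-KO and -3.54 in WT, a difference of 0.38. These levels lay below the median of both arrays apart from *BC053393* in G9a-KO, which lay just above the median. *Dppa1*, which lies directly beside *Gm4926*, lacked a single-gene probe set and is not analysed here.

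Outside the cluster the differences were small or inconsistent. *Sgcd*, which encodes a sarcoglycan of muscle and follows *Timd4*, differed by 0.24 (-2.69 in G9a-KO and -2.93 in WT). On the other side, *Med7*, a subunit of the Mediator complex, had 2.97 in G9a-KO and 3.29 in WT, a difference of -0.33. *Fam71b* differed by 0.18 and *Fndc9* by -0.24, both far below the median. *Cyfip2*, a regulator of actin assembly, was 3.21-fold lower by 1 probe set (-2.95 in G9a-KO and -1.26 in WT) but differed by 0.33 and 0.03 by its others, so its direction depends on the probe set.

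When 1 probe set past 1.3-fold was enough, 3 of the 8 neighbours were higher in G9a-KO and 1 was lower, against 24.6% and 22.0% of all genes. The count of 3 fell to 1, *BC053393*, with median centring, quantile normalization or lowess correction, since *Gm4926* and *Gm12169* lay close to the threshold. Of the 12 measured genes of the run, *Timd2* and *Havcr1* alone had differences above 3 on the log2 scale. As the TIM genes were chosen with these differences known, nothing is read from this contrast. Genes without a single-gene probe set, such as *Gm12174* and *Dppa1*, could not be compared.

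**Figure D3:**
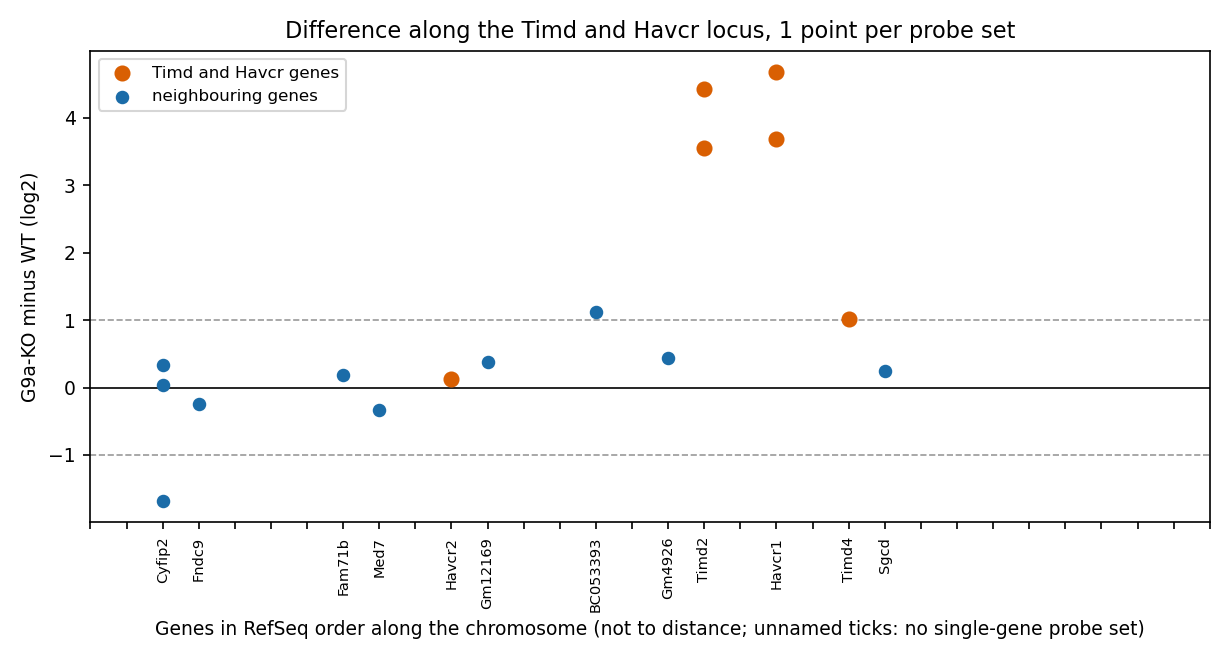
Log2 difference of G9a-KO and WT on the vertical axis for each single-gene probe set of 32 genes in RefSeq order along the chromosome (horizontal axis, gene order and not distance; unnamed ticks are genes without a single-gene probe set), with TIM genes in orange, neighbours in blue and dashed lines at 2-fold. *Timd2* and *Havcr1* lie between 3.56 and 4.68, *Timd4* and *BC053393* lie near the upper dashed line, and 1 probe set of *Cyfip2* lies at -1.68.

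Ligands and partners of the TIM proteins were examined next. Of 11 listed genes, 9 were measured, 3 were over 1.3-fold higher in G9a-KO and 1 was lower, against 17.4% higher and 17.2% lower over all genes. The median difference was 0.18, against 0.04 over all genes. *Lgals9*, which encodes galectin-9, a lectin that binds TIM-3, had a level of -0.70 in G9a-KO and -2.30 in WT (3.03-fold higher). *Adam10*, a membrane protease that sheds ectodomains, had 3.09 in G9a-KO and 1.66 in WT (2.70-fold higher), and 3.22-fold and 1.59-fold higher by others above the median. *Ceacam1*, an adhesion molecule reported to bind TIM-3, was 1.42-fold higher by the probe set with its highest mean and 4.17-fold to 2.06-fold by 4 others above the median, whose names end in _x_at or _s_at.

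Neither listed ligand of TIM-2 was higher in G9a-KO. *Sema4a*, a semaphorin that binds TIM-2, had a level of -2.38 in G9a-KO and -1.32 in WT (2.09-fold lower), and 1.79-fold lower by its other probe set. *Fth1*, the ferritin heavy chain that TIM-2 takes up, had 5.51 in G9a-KO and 5.60 in WT, a difference of -0.09. *Adam17* differed by 0.16 and *Bag6*, which binds the tail of TIM-3, by 0.18.

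Other receptors of phosphatidylserine and the proteins that bridge it to receptors mostly stayed within 1.3-fold, with a few that differed more. Of 21 genes, all measured, 5 were over 1.3-fold higher, 1 was lower and 15 stayed within the threshold, with a median of 0.18. Over all genes 17.4% were higher, a share close to this one, and 17.2% lower. *Mfge8*, a secreted protein that links phosphatidylserine to integrins, had 4.30 in G9a-KO and 1.90 in WT (5.27-fold higher). *Itgav*, the integrin chain to which it binds, had 2.98 in G9a-KO and 1.56 in WT (2.69-fold higher), and a further probe set above the median gave 1.10-fold. *Pros1*, protein S, a bridge to the TAM receptor kinases, had 1.62 in G9a-KO and -0.18 in WT (3.49-fold higher). The TAM receptors themselves differed by 0.07 (*Mertk*), -0.11 (*Axl*) and 0.23 (*Tyro3*), and *Axl* lay far below the median (-3.35 in G9a-KO and -3.24 in WT). On each array 12 of the 21 genes lay above the median, so several of those within 1.3-fold had low signal on both. *Stab2* and *Cd300a*, the other genes over the threshold, lay below the median on both arrays, and 3 genes were higher when such probe sets were left out.

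Few genes of the engulfment machinery inside the cell differed. Of 18 genes, all above the median on both arrays, 2 were higher and 3 lower, neither share above that over all genes, with a median of -0.01. *Abca1*, a lipid transporter, was 3.14-fold higher (0.08 in G9a-KO and -1.57 in WT), and *Gulp1*, an adaptor of engulfment receptors, was 2.42-fold lower (-1.91 in G9a-KO and -0.63 in WT) and a further probe set above the median gave 2.19-fold lower. *Wdfy3* was 1.90-fold lower by the probe set with its highest mean and 2.72-fold higher by another, so no direction is given for it. *Rac1*, the GTPase that drives the phagocytic cup, differed by 0.02 by the probe set that stands for it and by -0.51 by another above the median.

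Several TIM genes are known from immune cells, though not only from them, so markers of such cells were examined. Of 10 measured T cell markers, 5 were over 1.3-fold higher in G9a-KO and 0 lower, with a median of 0.39 and a summed signal of 2.04 in G9a-KO and 1.60 in WT on the log2 scale, against 17.4% of all genes higher and 17.2% lower. *Cd3d*, a chain of the T cell receptor complex, had -0.50 in G9a-KO and -2.27 in WT (3.41-fold higher). *Cd3g* had -2.53 in G9a-KO and -3.69 in WT, and *Ptprc*, which encodes CD45, had -2.64 in G9a-KO and -3.98 in WT, both below the median of each array. With only probe sets above the median on at least 1 array, 1 T cell marker was over the threshold. *Cd3e* (0.34), *Cd4* (-0.01) and *Cd8a* (0.22) stayed within 1.3-fold by the probe sets that stand for them. *Zap70*, with the highest level of the list, had 0.75 in G9a-KO and 0.55 in WT. By its other probe sets, also above the median, *Zap70* was 1.85-fold and 1.43-fold higher. The part of T cells in the *Havcr1* value was not tested.

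Of 14 macrophage and dendritic cell markers, 3 were over 1.3-fold higher (*Ptprc*, *Cd68* and *Csf1r*) and 0 lower, a share near the 17.4% of all genes that were higher, with a median of 0.14 and a summed signal of 1.54 in G9a-KO and 1.29 in WT. With only probe sets above the median on at least 1 array, 2 of these markers were over the threshold. On both arrays 5 of the 14 lay above the median, *Cd68* (-0.98 in G9a-KO and -1.49 in WT), *Csf1r* (-1.35 and -1.75), *Spi1* (-1.46 and -1.59), *Cd14* (-1.97 and -1.96) and *Fcgr1* (-2.04 and -2.18). Another probe set of *Csf1r* gave 2.46-fold higher (-1.10 in G9a-KO and -2.40 in WT), and a further one gave 1.06-fold higher. *Adgre1* (-2.70 in G9a-KO and -3.01 in WT), *Itgam* (-3.80 and -4.05) and *Lyz2* (-3.05 and -3.03) lay below the median of both. Of 9 measured B cell and mast cell markers, 1 was higher and 0 were lower, with a median of 0.06, and 0 were higher with any other scaling. *Cd79b*, the 1 marker of these that lay above the median, differed by -0.21. Among 15 fibroblast markers, 4 were higher and 0 lower, against 17.4% and 17.2% of all genes, and the median was 0.14, with a summed signal of 3.74 in G9a-KO and 2.67 in WT. *Fn1* (3.31 in G9a-KO and 1.71 in WT, 3.05-fold higher) had the largest difference. It also had the highest level of the list on both arrays, so the summed signal rests mostly on this gene. *Twist1* differed by 0.48. Of the listed collagens, *Col1a2* (-1.36 in G9a-KO and -2.19 in WT, 1.78-fold higher) and *Col5a1* (-1.09 and -1.15, and 2.12-fold higher by another probe set) lay above the median on both arrays, and *Col1a1* (-2.41 and -2.65), *Col3a1* (-4.55 and -4.61) and *Col6a1* (-3.67 and -3.81) below it. The study grew the G9a-KO cells on fibroblasts, and their part in these values was not tested. In these bulk RNA samples, more cells of a type and more RNA per cell cannot be told apart.

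The list of primitive and visceral endoderm markers had the largest differences. It also holds basement membrane genes, which parietal endoderm expresses too, so the list does not tell these types of endoderm apart. Of 21 measured markers, 19 passed 1.3-fold and 18 passed 2-fold, all higher in G9a-KO, against 17.4% of all genes over 1.3-fold higher. Their median difference was 3.11, their levels ran from -2.08 to 5.46 in G9a-KO and from -3.27 to 2.98 in WT, and their summed signal was 7.28 in G9a-KO and 3.87 in WT. The endocytic receptor genes *Cubn* (2.78 in G9a-KO and -3.04 in WT) and *Lrp2* (0.90 and -2.80) and their partner *Amn* (1.82 and -0.82) were higher, and so was the lineage transcription factor *Gata6* (1.27 and -1.85). *Srgn*, a proteoglycan core protein, and the basement membrane collagen *Col4a1* had differences of 5.79 and 4.95. The further basement membrane genes *Col4a2*, *Lama1* and *Lamb1* had 4.87, 4.26 and 4.16. Smaller differences were given by the probe sets that stand for *Afp* (1.19) and *Ttr* (0.82), with up to 3.85 and 3.24 by their others. The 2 markers within 1.3-fold were *Apoa1* (0.29) and *Thbd* (0.27). The part of endoderm-like cells in the values of *Havcr1* and *Timd2* was not tested.

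The genes whose levels on both arrays lay closest to those of *Havcr1* were *Dab2*, *Crxos*, *Car8*, *Serpinb6c* and *S100g*, at distances of 0.37 to 0.57 on the log2 scale over the 2 arrays. *Dab2*, an endocytic adaptor and itself on the endoderm list, had 1.68 in G9a-KO and -2.69 in WT, against 1.61 and -3.06 for *Havcr1*. *S100g*, a calcium-binding protein, had 1.49 in G9a-KO and -3.62 in WT, and *Crxos*, a homeobox gene of early embryos, had 2.03 and -2.82. *Car8*, related to carbonic anhydrases, had 1.12 in G9a-KO and -2.91 in WT, and *Serpinb6c*, of the serpin family, had 1.09 and -2.90. Levels of different probe sets also depend on how well the probes bind, so this likeness is a description, and the other probe sets of *Dab2* (7.49-fold, 5.54-fold and 1.63-fold), *Crxos* (2.10-fold) and *Car8* (1.60-fold and 1.20-fold) gave smaller differences than the ones that stand for these genes.

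**Figure D4:**
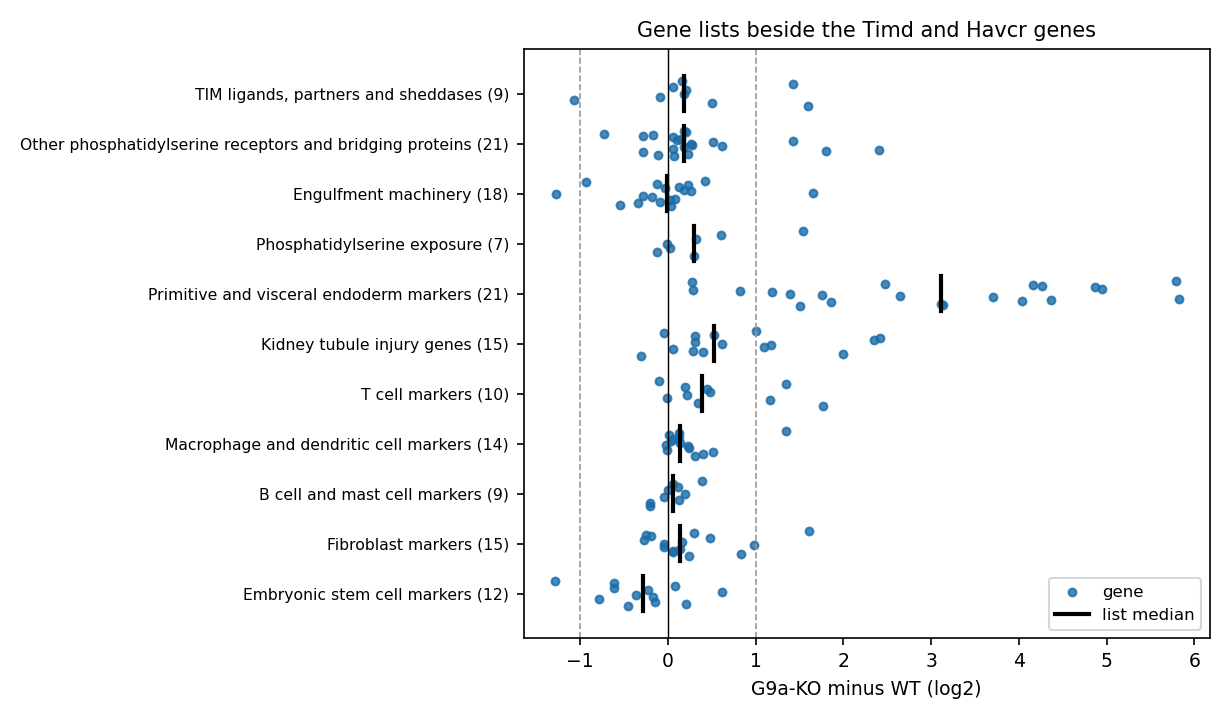
Difference between G9a-KO and WT (log2, horizontal axis) for the measured genes of each list (1 point per gene, number in brackets), with the list median as a black bar and dashed lines at 2-fold. The primitive and visceral endoderm list has the highest median (3.11), and the medians of the other lists lie between -0.29 and 0.53.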

How the data were processed

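Total RNA of G9a-KO and WT ESCs was measured on Affymetrix Mouse Genome arrays, 1 per group, and without replicates neither p-values nor SEs were given. The deposited values are log2 signals that the authors made with RMA (R 3.2.1), which corrects background, gives both arrays the same distribution of probe intensities and summarises the probes of a set. Total RNA per cell is not measured by such values. Following the methods of the study, each array was set relative to the 75th percentile of its 45101 probe sets, and differences are G9a-KO minus WT. Of the probe sets, 34958 had 1 symbol in the platform annotation, 932 had several and 9211 were unnamed here. For lists, the probe set with the highest mean stood for a gene. Genes named are all members, all measured genes of the locus, up to 3 per list with the largest absolute difference and above the median on at least 1 array, and the 5 nearest to *Havcr1*; further list members named were chosen after their values were seen. The members and the 11 lists were chosen with earlier results of these data known. Of 161 list memberships, 151 were measured. Gene order and sequences came from RefSeq (GRCm38.p6). No build is named for the array. Alternatives were no shift, median centring, quantile normalization, lowess correction (span 0.3), a filter on dim probe sets, a filter on _s_at, _x_at and _a_at probe sets, and the mean or the largest absolute difference over the probe sets of a gene, and the steps were tested on simulated data. Python 3.11.15 with pandas 2.3.3 and statsmodels 0.14.6 was used. The number of arrays limits the precision.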

Additional observations from a re-analysis of the deposited data

How the results depend on the processing

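No alternative changed the direction of any TIM probe set. Under the 4 other scalings, differences ran from 4.57 to 4.66 and from 3.58 to 3.64 for *Havcr1*, from 3.46 to 3.54 and from 4.33 to 4.39 for *Timd2*, from 0.91 to 0.96 for *Timd4* and from 0.03 to 0.08 for *Havcr2*. The 5 probe sets over 2-fold became 4 under each of these scalings, through *Timd4*, and 3 when _s_at, _x_at and _a_at probe sets were left out, as did the 5 over 1.3-fold, because that leaves 1 probe set per gene. Median centring lowers every difference by 0.10, and the share of higher among calls over 1.3-fold was 39.5% with it, 45.7% without a shift, 46.3% with quantile normalization and 48.9% with lowess correction, against 53.8% as reported. Of the locus neighbours, 1 was higher with median centring, quantile normalization, lowess correction or the filter on dim probe sets, and 2 were lower with no shift or median centring. With median centring, 3 phosphatidylserine receptor genes were lower, 5 engulfment genes were lower and 1 higher, 3 T cell markers were higher and 1 kidney injury gene was lower. With no shift or quantile normalization, 1 engulfment gene was higher. With each of the 4 scalings and both filters, 0 B cell and mast cell markers were higher. With only probe sets above the median, 3 phosphatidylserine receptor genes and 1 T cell marker were higher, and the kidney injury median was 1.00. Without the special endings, 5 kidney injury genes were higher. With the mean over probe sets, the endoderm median was 2.20, and 1 engulfment and 1 exposure gene were lower. With the largest absolute difference, 4 engulfment genes and 2 embryonic stem cell markers were higher, and 2 TIM ligand and 1 exposure gene were lower. The cause was not tested. With 1 array per group, leaving out an array or a paired analysis was not possible.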

Other observations

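As *Havcr1* is known as a gene of injured kidney tubules, other genes known to be induced there were examined. Among 15 measured genes, 9 passed 1.3-fold, each higher in G9a-KO, with a median difference of 0.53, against 17.4% of all genes over 1.3-fold higher. The fibrinogen chains *Fgg* (-0.70 in G9a-KO and -3.13 in WT, 5.37-fold higher) and *Fgb* (-0.92 and -3.28, 5.11-fold) and the secreted chaperone *Clu* (2.84 and 0.84, 4.01-fold) had the largest differences, and the 3 other probe sets of *Clu* gave 4.32-fold to 3.70-fold. The keratins *Krt8* and *Krt18* were 2.13-fold and 2.25-fold higher. *Lcn2*, an early marker of tubule injury, lay far below the median on both arrays (-4.85 in G9a-KO and -4.54 in WT). So did the fibrinogen chain *Fga* (-4.45 and -4.76) and *Krt20* (-3.02 and -3.07), and *Vim* differed by -0.05. The cause of the differences on this list was not tested.

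Genes that set how much phosphatidylserine a cell shows were also examined. Of 7 measured genes, 2 were over 1.3-fold higher and 0 lower, with a median of 0.30, against 17.4% and 17.2% of all genes. *Atp8a1*, a flippase that moves the lipid to the inner leaflet, had -0.35 in G9a-KO and -1.89 in WT (2.91-fold higher, and 2.45-fold to 1.78-fold by its other probe sets above the median). *Tmem30a*, the shared subunit of such flippases, had 2.18 in G9a-KO and 1.58 in WT (1.52-fold higher, and 3.87-fold to 1.58-fold by its other probe sets above the median). *Atp11a*, another flippase, differed by -0.01 by the probe set that stands for it, and by another was 4.96-fold lower (-2.58 in G9a-KO and -0.27 in WT), the largest difference of any probe set of this list. *Xkr8*, a scramblase that exposes the lipid in dying cells, differed by 0.30, *Ano6*, a scramblase activated by calcium, by 0.02 and *Atp11b* by 0.32.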
